A study of Homo sapiens with 4 samples.

Results

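The 579 peaks described here are SPIB ChIP-seq peaks of suspended H1703 cells that lay at the ends of noncoding genes and had no overlapping peak in attached cells. They were chosen by 4 properties of the called peaks. A peak had to lie on chromosome 1 to 22, X or Y, be under 750 bp wide and overlap no attached peak. Its summit, the position of highest tag pile-up, had to lie within 1 kb of an end of a gene that is not protein-coding and of no protein-coding gene. They were 6.95% (95% interval 6.41 to 7.52) of the 8331 suspended-only peaks under 750 bp, and 6.45% of the 8981 suspended peaks on these chromosomes. Because position, width and the call in suspended cells chose them, those values are given as description.

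H1703 is a long-established cell line from a human squamous carcinoma of the lung, and all cells of the study overexpressed SPIB. The study had 4 libraries, which were 1 chromatin immunoprecipitation (ChIP) with the anti-FLAG M2 antibody and 1 input from attached cells, and the same pair from suspended cells. The labels' protocol names 24 h of suspension for every library, and the condition label told attached from suspended. Filtered ChIP depth was 21108364 tags for the attached and 20766909 for the suspended library. There were no replicates, so every value below describes single libraries and no p-value between conditions is given. Each noncoding gene is named by the nearest end in a RefSeq table of gene spans.

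SPIB is an ETS-family transcription factor, related to PU.1, that works in B cells and plasmacytoid dendritic cells and binds purine-rich sites around a GGAA core. Noncoding genes include long noncoding RNAs (lncRNAs), which RNA polymerase II transcribes, transfer RNAs (tRNAs) and other short genes that RNA polymerase III transcribes, the small nuclear RNAs of the spliceosome, microRNA precursors and pseudogenes. Many lncRNAs begin beside a coding gene and run antisense to it or away from it.

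The sequences of 4 microRNAs whose precursors lay beside these peaks are shown because they carry the regulatory seed, bases 2 to 8, in capitals. They are mature forms from RefSeq on GRCh38.p14. The first and second share 1 seed and come from precursors beside the same peak.
miR-132-3p: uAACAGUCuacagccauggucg
miR-212-3p: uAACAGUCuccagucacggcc
miR-153-3p: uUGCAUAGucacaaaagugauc
miR-196a-5p: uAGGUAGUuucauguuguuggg

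Promoters are shown for the 3 peaks of highest fold enrichment whose summit fell inside a listed promoter window. These windows run from 250 bases before to 50 after a lncRNA start, in RefSeq on GRCh38.p14. They are printed so that the sequence under a summit can be read, with ETS motifs on either strand (AGGAAG, GAGGAAGT or CCGGAAGT) in capitals.
LOC105376031, chr9:37027695-37027994, plus strand: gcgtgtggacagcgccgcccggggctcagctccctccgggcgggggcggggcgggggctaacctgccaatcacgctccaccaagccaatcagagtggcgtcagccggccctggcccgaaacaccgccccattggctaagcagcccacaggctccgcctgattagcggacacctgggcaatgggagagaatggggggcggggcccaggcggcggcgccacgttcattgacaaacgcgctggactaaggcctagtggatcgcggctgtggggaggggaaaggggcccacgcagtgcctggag
LINC01426, chr21:34745575-34745874, plus strand: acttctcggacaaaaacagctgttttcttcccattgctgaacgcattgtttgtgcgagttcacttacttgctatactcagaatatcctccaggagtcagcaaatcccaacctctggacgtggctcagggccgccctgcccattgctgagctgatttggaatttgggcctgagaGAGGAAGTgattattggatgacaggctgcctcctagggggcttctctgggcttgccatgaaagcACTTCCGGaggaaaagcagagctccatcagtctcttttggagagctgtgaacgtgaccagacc
LOC101929863, chr20:45138980-45139279, minus strand: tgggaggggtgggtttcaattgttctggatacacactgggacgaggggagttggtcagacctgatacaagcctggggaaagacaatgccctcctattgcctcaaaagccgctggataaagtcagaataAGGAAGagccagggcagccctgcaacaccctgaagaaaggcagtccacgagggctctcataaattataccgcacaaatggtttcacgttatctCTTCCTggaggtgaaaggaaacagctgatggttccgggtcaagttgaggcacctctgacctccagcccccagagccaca

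The LOC105376031 window held none of the 3 motifs in these 300 bases, had 69.7% G and C, and its peak had 25 tags at 17.56-fold. LINC01426 and LOC101929863 each had 2 separate motif stretches, at 16 tags and 14.34-fold and at 8 tags and 14.04-fold. The next windows by fold, LOC105374386, LOC124907917 and LOC105371351, had none. Of all 46 windows that held a summit, leaving out chromosome 8, 20 (43.5%, 28.9 to 58.9) had at least 1 of the motifs. The share was 36.5% among all 35085 listed promoter windows, which is inside that interval. Of these 35085, 22175 were at coding starts, so they were not matched to the 46 lncRNA windows.

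The 579 peaks were small. A peak held a median of 16 ChIP tags (8 to 56), spanned a median of 265 bp and had a median fold enrichment, the authors' ratio of ChIP tags to local background, of 8.77 (3.70 to 22.36). The authors' false discovery rate (FDR) was at most 5% in 462 of them (79.8%, 76.3 to 83.0), against 75.3% of all suspended-only peaks under 750 bp. This share stood between that of peaks at coding gene ends (82.7%) and those inside genes (72.4%) or between genes (70.4%). An FDR of at most 1% was reached by 14.9%, against 22.7% at coding ends, 8.07% inside genes and 7.08% between genes. Coding-end peaks were also larger, with medians of 21 tags and 342 bp, whereas peaks inside genes and between genes both had a median of 11 tags.

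Most of that difference in tags went with width. Between 300 and 399 bp, the median was 21 tags at noncoding ends, 21 at coding ends, 20 inside genes and 21 between genes. Between 200 and 299 bp it was 13 at noncoding ends, 15 at coding ends and 13 in both other classes. The noncoding-end peaks were wider than those away from gene ends and narrower than those at coding ends, and at a given width they held nearly as many tags.

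**Figure D1:**
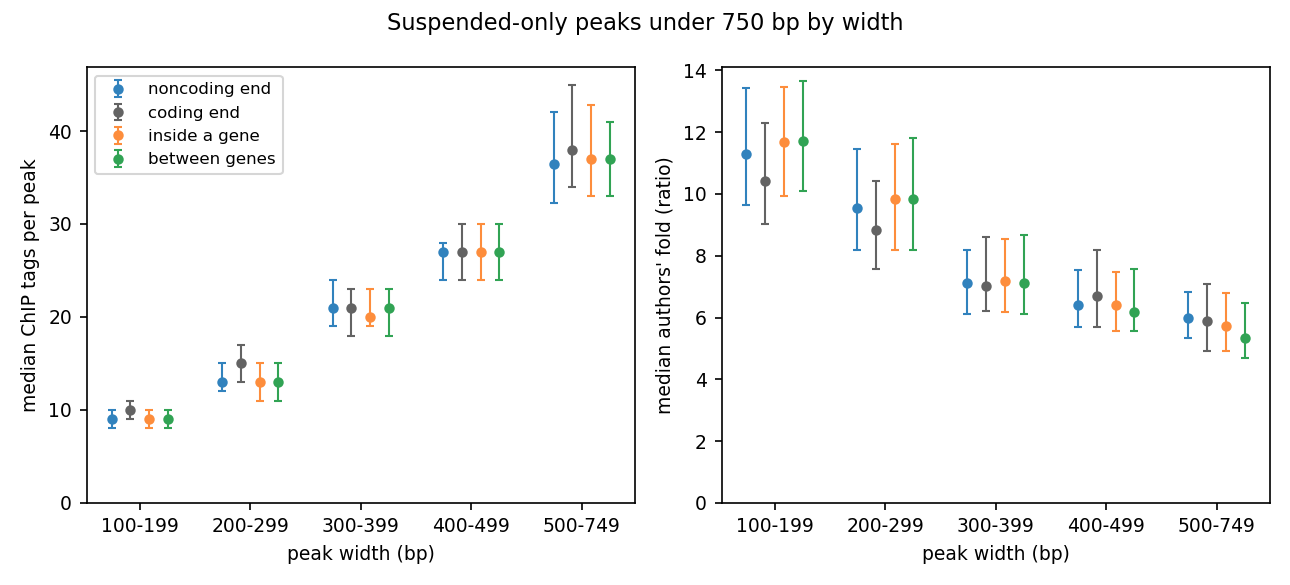
Median ChIP tags per peak (left) and median authors' fold enrichment (right) by peak width, for suspended-only peaks at noncoding ends, at coding ends, inside genes and between genes. Points are medians and bars run from the lower to the upper quartile over peaks. The classes lie close together in each width class, while tags rise and fold falls with width.

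Long noncoding RNA genes were nearest to 362 of the 579 peaks (62.5%), and pseudogenes of any kind to 153 (26.4%). The others were 24 microRNA genes, 23 tRNA genes, 7 small nuclear RNA genes, 3 small nucleolar RNA (snoRNA) genes and 7 of other kinds. Counted over genes, 613 of 39642 noncoding genes (1.55%) had such a peak, and 3.05% had any suspended peak within 1 kb of an end. The share was 6.09% (4.05 to 8.74) of 443 tRNA genes, 4.55% (1.85 to 9.14) of 154 small nuclear RNA genes and 3.64% (2.67 to 4.82) of 1265 transcribed pseudogenes. It was 2.02% (1.82 to 2.24) of 18303 lncRNA genes, 1.62% (1.10 to 2.29) of 1913 microRNA genes, 0.745% (0.616 to 0.892) of 15580 pseudogenes not listed as transcribed and 0.667% of 1199 snoRNA genes. The intervals of tRNA genes and transcribed pseudogenes lie above that of lncRNA genes, and that of the other pseudogenes below it. Counting any suspended peak, transcribed pseudogenes (4.66%, 3.57 to 5.98) did not differ from lncRNA genes (4.78%, 4.48 to 5.10) beyond counting error, while tRNA genes (10.6%, 7.90 to 13.9) still lay above. The gap of transcribed pseudogenes thus appears only with the selected peaks. These leave out peaks near coding ends, wide peaks and peaks overlapping an attached peak, and the steps were not separated. Genes of a cluster can share a peak, so these intervals cover counting error and treat genes as separate.

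**Figure D2:**
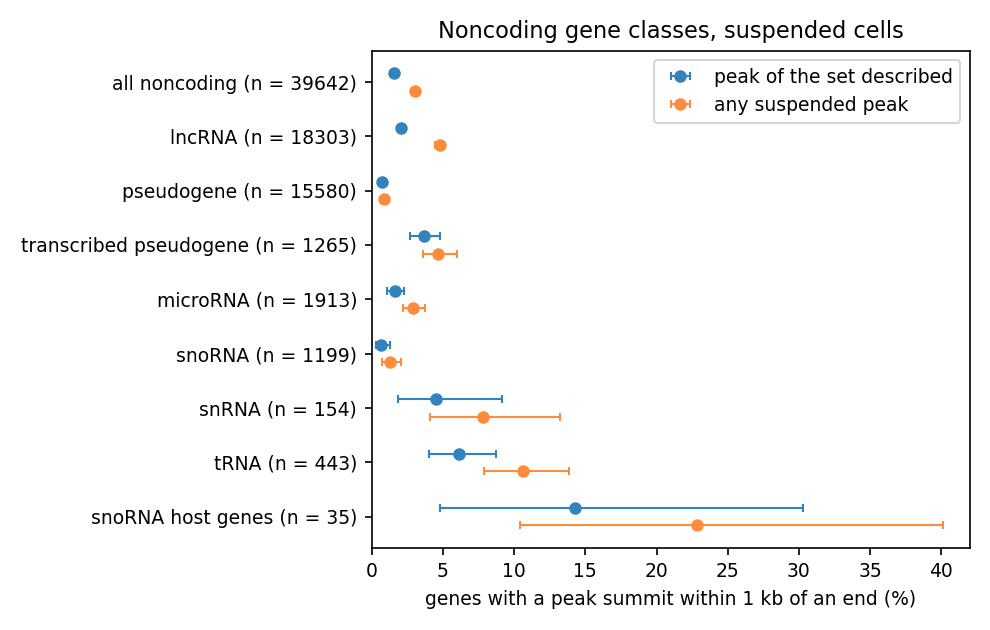
Share of genes of each noncoding class with a peak summit within 1 kb of an end in suspended cells. Blue points are the suspended-only peaks under 750 bp away from coding ends, orange points are any suspended peak, and bars are exact 95% binomial intervals. Transfer RNA genes (6.09% and 10.6%) and snoRNA host genes (14.3% and 22.9%, 35 genes) lie to the right of lncRNA genes (2.02% and 4.78%).

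The rule removed many peaks at lncRNA genes that begin beside coding genes. Divergent transcripts, named for the coding gene from which they run away, had any suspended peak at 104 of 592 genes (17.6%) and a peak of the 579 at 14 (2.36%). Among these were YAP1-DT (24 tags, 7.28-fold), RELA-DT (12 tags, 7.62-fold) and SLC25A28-DT (42 tags, 5.82-fold). The start was the nearer end at YAP1-DT and RELA-DT. At the divergent transcripts of highest fold, GARS1-DT (9.83-fold), ACTN1-DT (8.72-fold) and GNA15-DT (8.38-fold), the far end was nearer. Genes named as antisense had any suspended peak at 10.2% and a peak of the 579 at 79 of 2059 (3.84%). Of the 80 peaks nearest to such a gene, 64 lay inside a coding gene. INO80D-AS1 had the highest fold among them, at 16.39 with 20 tags, 1678 bp from the listed start of INO80D, a subunit gene of a chromatin remodeller. LHX5-AS1 followed the short LRRK1-AS1 peak (8 tags, 14.90-fold), with 25 tags at 14.04-fold. Intergenic lncRNA genes with a LINC name had a peak at 55 of 2309 (2.38%), and 66 had any suspended peak.

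Where strand was listed, lncRNA peaks lay more often at the start of the gene than at its far end. The start was nearer in 179 of 261 (68.6%, 62.6 to 74.2), and in 59 of 74 (79.7%) when the summit lay within 250 bp. At coding ends the start was nearer in 1690 of 1884 peaks (89.7%, 88.2 to 91.0), a higher share than at the lncRNA genes. The rule removed peaks at lncRNA starts beside coding gene ends, with no such step for the coding-end peaks. What this does to the gap was not tested. The peaks at lncRNA starts were wider, with a median of 335 bp and 20 tags (95% interval of the median 19 to 22). At far ends the medians were 235 bp and 13.5 tags (11 to 16).

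Summits lay more widely around lncRNA starts than around coding starts. Of 191 peaks with a listed lncRNA start within 1 kb, 64 (33.5%, 26.9 to 40.7) lay within 250 bp of it. For coding-end peaks this was 840 of 1687 (49.8%, 47.4 to 52.2). The summit was upstream of the lncRNA start in 108 (56.5%, 49.2 to 63.7), while 41.5% (39.1 to 43.9) lay upstream of the coding start. The median summit stood 73 bp upstream of the lncRNA starts and 59 bp downstream of the coding starts. A summit within 1 kb of a coding gene end could not enter. A lncRNA start beside such an end entered only with a summit farther from that end, as at YAP1-DT (994 bp upstream of its start). What this does to the spread was not tested.

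**Figure D3:**
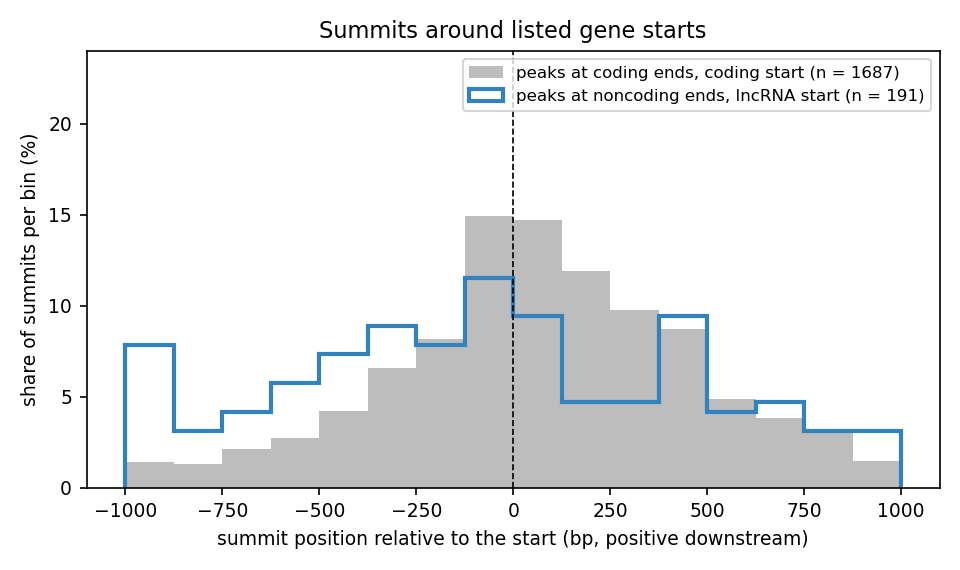
Positions of summits relative to the nearest listed start, in bins of equal width, for the 191 peaks at lncRNA starts (blue line) and for 1687 peaks at coding starts (grey). The coding profile is tallest around the start, and the lncRNA profile is flatter with more summits upstream.

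The lncRNA promoters beside the peaks were rich in G and C. The 185 promoter windows had a median of 61% G and C (quartiles 52.3 and 69.0), and 98 (53.0%, 45.5 to 60.3) exceeded 60%. Among the 10551 listed lncRNA starts with no coding gene end within 1 kb, the median was 47.3% and 16.9% exceeded 60%. Coding starts at coding-end peaks had a median of 66%. The rule placed summits and not starts, so some of the 185 starts lay beside a coding gene end or a listed coding start. The 118 with neither a coding end nor a listed coding start within 1 kb had a median of 57.5%, and 41.5% (32.5 to 51.0) exceeded 60%, against 15.1% of 10163 lncRNA starts placed likewise.

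Motif shares were read against the same 10551 windows. Unlike these, the 185 were not held away from coding ends, and what this does to the gaps was not tested. The GC box GGGCGG, searched like every motif on both strands, was in 55.7% (48.2 to 63.0) of the 185 windows and 16.6% of the 10551. Part of this gap goes with composition: it was in 16.3% against 8.12% of windows with 45 to 55% G and C, in 45.5% (32.0 to 59.4) against 33.2% from 55 to 65%, and in 94.4% against 75.7% above. Below 45% it was in 4 of 16 windows against 1.65%. The TATA motif TATAAA was in 4.32% (1.89 to 8.34) against 17.4%. The ETS core AGGAAG was in 38.4% (31.3 to 45.8) against 34.8%, within counting error. CCGGAAGT, the longer ETS site, was in 4.86% (2.25 to 9.03) against 1.01%. No split by composition is given for CCGGAAGT or TATAAA. The compared windows differ in G and C, and its part in these gaps was not tested. GAGGAAGT, the form preferred by SPIB and PU.1, contains AGGAAG and was in 3.24% (1.20 to 6.92) against 2.48%. It was in 4 of the 63 windows with the summit within 250 bp of the start (6.35%, 1.76 to 15.5) and in 6 of the 118 away from coding ends and starts (5.08%, 1.89 to 10.7). Both intervals hold the 2.48%, which belongs to the 10551 windows and was not matched to these subsets. The AP-1 site TGANTCA (7.03% against 11.9%), the CRE TGACGTCA (2.70% against 0.777%), the E-box CACGTG (8.11% against 4.73%) and the NRF1 site CGCATGCG (1.08% against 0.635%) were present in few windows. The REST motif parts CAGCACC and GGACAG were in 8.65% against 7.17% and in 24.9% against 19.7%.

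Away from listed coding starts, AGGAAG was in 53 of 118 windows (44.9%, 35.7 to 54.3) against 35.1%, just below that interval. Split by composition, these windows had it in 3 of 15 against 29.9% below 45% G and C, in 51.4% against 40.9% from 45 to 55%, in 54.1% against 41.1% from 55 to 65%, and in 38.7% against 27.4% above. Each of these 4 intervals holds the value of the other starts. A match describes letters in the window only, and most of these summits lay outside the windows.

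**Figure D4:**
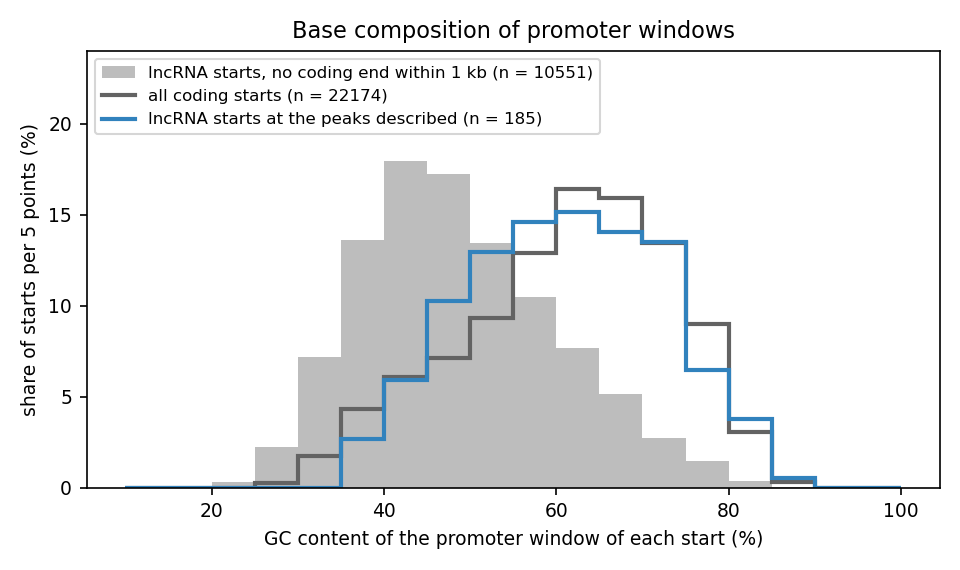
Base composition of promoter windows, as the share of starts in each 5-point class of G and C content. The 185 windows at lncRNA starts beside the peaks (blue) have a median of 61%, near all coding starts (dark line, 62.3%) and above lncRNA starts away from coding ends (grey, 47.3%).

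Transfer RNA genes had peaks for many amino acids. The 23 peaks nearest to a tRNA gene held 8 to 44 tags (median 22) at 4.68- to 16.22-fold, and 11 lay within 100 bp of the gene. Chromosome 6, which holds the largest human tRNA clusters, had 7 of them and chromosome 1 had 5. Leucine tRNA genes had such a peak at 5 of 32, threonine at 3 of 20 and glutamate at 2 of 15, and glycine at 0 of 30, cysteine at 0 of 29 and arginine at 0 of 26. The zeros hold for the selected peaks only, since any suspended peak lay at 2 glycine, 2 cysteine and 1 arginine genes, and an attached peak at 2 glycine genes. With so few genes a family, the intervals overlap, since 0 of 30 allows up to 11.6%. The highest fold was at TRN-GTT2-7, an asparagine tRNA gene (9 tags, 16.22-fold), and the most tags at TRT-CGT4-1, a threonine tRNA gene (44 tags, 5.65-fold). A methionine tRNA gene, TRM-CAT1-1, had a peak close to it (26 tags, 6.24-fold, 17 bp from the gene).

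Among the genes of the spliceosome, 6 peaks lay at RNU1-1, RNU5E-1, RNU5F-1, RNVU1-6, RNVU1-7 and RNVU1-8, which encode U1, U5 and variant U1 RNAs. Their peaks held 9 to 36 tags at 7.44- to 12.33-fold. The seventh, at LOC124904138 on chromosome 17, differed from every other peak in the set. It held 50 tags in 113 bp, or 44.2 tags per 100 bp, where the next highest was 10.9, and it had the lowest fold of all (3.70). Close copies of tRNA, U1 and U2 genes exist elsewhere in the genome, and the sources used here do not say how the authors placed reads with several matches, so the copy named is uncertain.

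Other short genes were few. The vault RNA genes VTRNA1-1 and VTRNA1-2, made by RNA polymerase III, had 17 tags (8.58-fold) and 18 tags (10.12-fold), and these were 2 of 4 vault RNA genes. RNA5S8, a 5S ribosomal RNA gene, had 11 tags at 18.20-fold, 656 bp from the gene. SCARNA2, which guides RNA modification in Cajal bodies, had 19 tags at 7.24-fold, 4 bp from the gene. Among host genes that carry snoRNAs in their introns, 5 of 35 had such a peak (14.3%, 4.81 to 30.3). EPB41L4A-AS1 had 26 tags (8.82-fold), SNHG26 28 tags (5.26-fold), SNHG33 23 tags (7.39-fold), SNHG6 13 tags (8.19-fold) and SNHG17 11 tags (7.99-fold). At the 4 with listed strand the start was the nearer end.

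MicroRNA genes stood at 24 of the peaks, with 8 to 40 tags (median 17), and 16 of these peaks lay inside a coding gene. Over all 579 peaks, 30 microRNA genes with a sequence listed lay within 1 kb and gave 42 mature forms with 39 seeds. The peak overlapped the precursor in 7, and MIR132, MIR4634, MIR4784 and MIR6838 were among the 5 precursors that lay wholly within it. MIR5187 had the most tags of the 24 peaks nearest to a microRNA gene (40, 12.29-fold, FDR 0%), 225 bp beyond its precursor. The summit of that peak lay inside TOMM40L, 1706 bp from an end of that gene. One peak of 21 tags at 7.11-fold, chr17:2049891-2050262, covered MIR132 and ended 9 bp before MIR212. Their main products, printed above, share the seed AACAGUC and are known in neurons. The let-7 host MIRLET7A1HG had 24 tags at 11.70-fold. MIR196A2, in a HOX cluster, had 17 tags at 8.23-fold, 423 bp upstream of its precursor, and MIR142HG, of the blood-cell microRNA miR-142, had 19 tags at 7.50-fold. MIR153-1 had 27 tags at 5.34-fold, 521 bp upstream of its precursor.

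The 2 other seeds shared by several forms came from overlapping precursors on opposite strands. These were CAGGCUC in miR-3155a and miR-3155b, and GACACAU in miR-642a-3p and miR-642b-3p. The summit was upstream of the precursor in 13 microRNA genes, and the start was the nearer end in 10 of the 24 peaks (41.7%, 22.1 to 63.4).

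Pseudogene peaks were narrower and had fewer tags than those of lncRNA genes. Their medians were 213 bp, 12 tags (11 to 12) and 10.15-fold, against 293.5 bp, 18 tags (16 to 19) and 8.19-fold at lncRNA genes. Ribosomal protein pseudogenes, the most numerous processed copies, had a peak at 7 of 1989 (0.352%), and pseudogenes of small RNA genes at 23 of 3460 (0.665%). RN7SKP92, a copy of the 7SK gene, combined a high fold (19.81) with 25 tags and an FDR of 0%. IQSEC3P1 had the most tags among named pseudogenes (46, 10.51-fold, FDR 0%). HBAP1, in the alpha-globin cluster, had 13 tags at 18.43-fold.

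Fold and tags picked different peaks. The highest fold, 22.36, was at FOXO1B (chr5:181098227-181098365), with 11 tags (95% Poisson interval 5.49 to 19.7), and LINC02264 followed at 19.87-fold with 8 tags. Of the 20 peaks with the highest fold, 15 had at most 12 tags, and 7 of the 579 shared 1 fold of 17.39. The other 5 were RN7SKP92 and LOC105376031 with 25 tags each (16.2 to 36.9), INO80D-AS1 with 20, LOC102723692 with 17 and HBAP1 with 13. LOC105376031 lay inside the B-cell factor gene PAX5, 6568 bp from its listed start. The most tags were at LINC03042 (56, 42.3 to 72.7), LOC124903941 (55), LOC100422730 (53), LINC01962 (52) and LOC105371573 (51). Their folds ran from 5.56 to 6.83. The Poisson intervals of these 5 overlap throughout, so their order is not resolved.

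**Figure D5:**
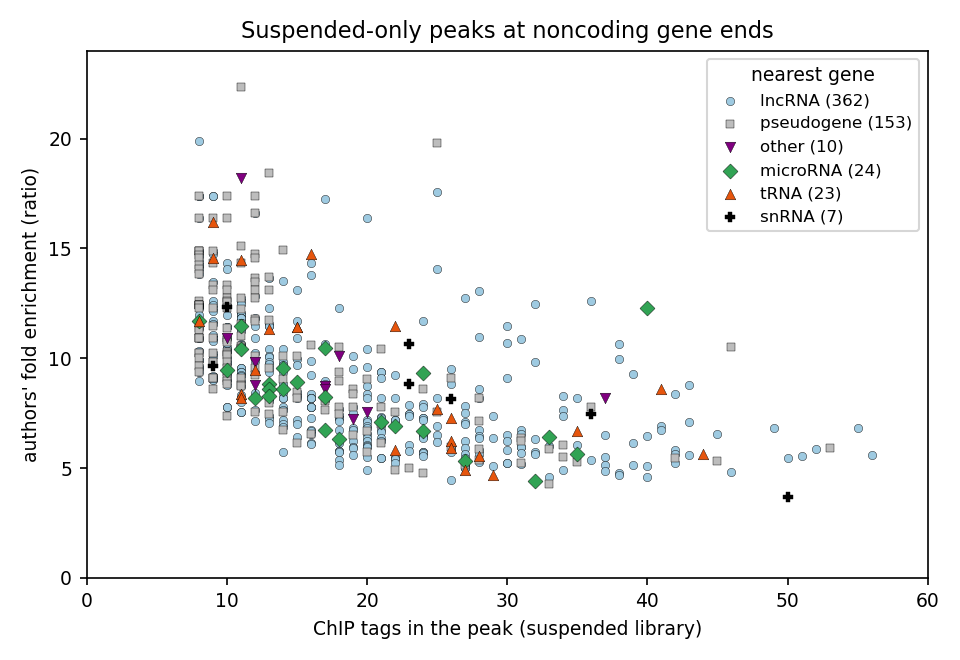
ChIP tags and authors' fold enrichment of each of the 579 peaks, marked by the kind of the nearest noncoding gene. High folds occur at low tags. The black cross at 50 tags and 3.70-fold is the small nuclear RNA gene LOC124904138.

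Peaks in regions crowded with suspended peaks had more tags. Among the 10 peaks with most tags, 7 lay in the most crowded 1 Mb windows (12 or more suspended peaks), as did 13 of the 28 with at least 40 tags. Of all 579 peaks 22.1% did, close to 21.4% of all suspended-only peaks under 750 bp. The peaks in crowded windows had a median of 19 tags and 7.56-fold, and the other 451 had 14 tags and 9.10-fold. In these windows the medians were also high at coding ends (24 tags), inside genes (19) and between genes (20). DNA copy number in these windows was not measured, and its part was not tested.

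Of a list of 48 well-known noncoding genes, KCNQ1OT1, NEAT1 and NORAD had such a peak (6.25%, 1.31 to 17.2), an interval that holds the 2.02% of all lncRNA genes. RMRP had another suspended peak. KCNQ1OT1, the imprinted antisense gene in KCNQ1, had neighbouring peaks of 12 tags (12.85-fold) and 11 tags (9.54-fold). NORAD, a regulator of Pumilio proteins, had 11 tags at 11.99-fold. NEAT1, the scaffold of paraspeckles, had 32 tags at 5.63-fold, 26 bp outside the end of its span with the lower coordinate. Its strand was not listed, so start and far end were not told apart. Of 18 neuronal noncoding genes that include targets of the repressor REST, MIR132, MIR212 and MIR153-1 had a peak of the set (16.7%, 3.58 to 41.4), against 1.62% of all microRNA genes and 1.55% of all noncoding genes. These 3 genes stood at 2 peaks, since the first pair shared 1, and nothing is read from so short a list. SNAP25-AS1, MIR9-3HG and MIR7-3HG had both suspended and attached peaks within 1 kb.

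The rule barred overlap with an attached peak, and only 453 attached peaks lay on chromosomes 1 to 22, X and Y. How many of the other suspended-only peaks had an attached peak nearby was not counted. An attached peak lay within 10 kb of 9 of the 579, and within 1 kb of 3 (LOC124903628 at 279 bp, CPNE8-AS1 at 586 bp and LINC02558 at 678 bp). Peaks of any width at noncoding ends alone were 35 of 453 attached peaks (7.73%, 5.44 to 10.6) and 631 of 8981 suspended peaks (7.03%, 6.51 to 7.57), so their share did not differ beyond counting error while the number of peaks did. Of the 35, 18 overlapped no suspended peak. The same share over all 453 attached peaks was not counted, so nothing is read from these 18.

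The label of noncoding gene ends did not separate the set fully from coding genes. Inside a coding gene span lay 232 of the peaks (40.1%), 152 had a coding end within 5 kb, and 71 (12.3%, 9.70 to 15.2) had a listed coding start within 1 kb that is not an end of the span. Coding starts on chromosome 8 were not used here. The 71 had a median of 24 tags (20 to 27), near the 21 of coding-end peaks, and the other 508 had 14 (13 to 16). SCOC-AS1, KDM2B-DT and UBE2D3-AS1 were of this kind, with summits 175, 332 and 273 bp from a listed start of the coding gene. Away from coding genes, 68 peaks lay over 100 kb from any coding end.

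Peaks just inside and just outside each limit of the rule were as follows. The widest peak was 738 bp with 37 tags at 4.88-fold, and the narrowest one left out by width was 756 bp with 47 tags at 4.23-fold. The summit farthest from its gene end lay at 1000 bp (8 tags, 17.39-fold), and the nearest one left out at 1001 bp (29 tags, 6.66-fold). The peak nearest to a coding end, at YAP1-DT, stood 1004 bp away (24 tags, 7.28-fold), and one at 962 bp was left out (22 tags, 9.22-fold).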

How the data were processed

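Per the file headers, MACS 1.4.2 was run by the authors on each ChIP with the input of the same condition, at a p cutoff of 1.00e-05, keeping 1 tag per position. The modelled fragment length was 58 bp (attached) and 63 bp (suspended). The build is hg38, per the submitters' processing notes. Which aligner was used is not given in these sources. In the deposited lists, tags are a count per peak, fold enrichment is the authors' ratio over local background, the FDR is a percent and the score is the authors' minus 10 log10 of the p-value. These authors' values only describe, rank or filter peaks.

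Genes and sequences came from RefSeq tables for GRCh38.p14, which give 59679 gene spans. Positions were analysed in Python 3.11.15 with SciPy 1.17.1, pandas 2.3.3 and numpy 2.4.6, and figures drawn in matplotlib 3.10.9. The search for gene ends and overlaps was tested on simulated peaks. Shares carry exact Clopper-Pearson, tags exact Poisson and medians order-statistic intervals at 95%, all for counting error only. Strand was listed for 261 lncRNA peaks. Named peaks were the 20 of highest fold, the 10 with most tags and the leading peaks of each gene class. Others named to illustrate a count (UBE2D3-AS1, KDM2B-DT, SLC25A28-DT, TRT-CGT4-1 and TRM-CAT1-1, the microRNA genes beyond the leading ones, and peaks near attached peaks or near a limit) were chosen after their values were seen, as were printing promoters with the summit inside and the comparison set without coding starts. The peak set and lists were chosen with earlier results of these data known. One gene that the rule names is not reported here.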

Additional observations from a re-analysis of the deposited data

How the results depend on the processing

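No paired analysis was possible because each condition had 1 ChIP library. The 579 peaks became 362 with a noncoding window of 500 bp, 870 with 2 kb and 293 in the upper score range of the list, and other settings gave 427 to 615. Their share of suspended-only peaks under 750 bp, 6.95%, moved to 4.35% and 10.4% with those windows, 5.13% when coding ends had to be 5 kb away, 5.20% without pseudogenes and 8.03% without peaks within 1 kb of a listed coding start, a setting chosen after seeing the data. The median fold of 8.77 moved to 8.19 without pseudogenes and 9.22 under 500 bp width, and the median of 16 tags to 20 in the upper score range, where all peaks (100%) had an FDR of at most 5%. The share at lncRNA genes, 62.5%, rose to 84.5% without pseudogenes, by construction. The share of lncRNA peaks nearer the start moved from 68.6% to 79.7% within 250 bp. With starts within 250 bp of the summit, CACGTG moved from 8.11% to 3.17%. Within the wide intervals of 63 windows, GAGGAAGT went from 3.24% to 6.35%, TGACGTCA from 2.70% to 4.76%, TGANTCA from 7.03% to 11.1% and CCGGAAGT from 4.86% to 3.17%. Apart from those changes that follow from the setting itself, the cause was not tested. In all, 68 values stayed within the 95% interval of the reported value or, for counts, within 1.5 times. Among them were GAGGAAGT, TGACGTCA, TGANTCA, CCGGAAGT and the counts of 427 to 615 given above. Depth limits single peaks: 215 of the 579 had at most 12 tags.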
